A study of Homo sapiens with 2 samples.

Results

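Integrins are transmembrane receptors built of an alpha and a beta chain, and ICAM1 is an immunoglobulin-family surface protein that leukocyte integrins bind. These genes were followed by RNA-seq of 2 libraries of LNCaP, a human prostate cancer line that responds to androgen and was derived from a lymph node metastasis. For the oe-YY1 library the LNCaP cells had received CM from oe-YY1 M2 macrophages, and for the nc-YY1 library CM from nc-YY1 M2 macrophages. The labels give the LNCaP genotype as WT in both libraries and attach YY1, a zinc finger transcription factor, to the macrophages, and they do not spell out oe, nc or CM. The treatment labels add the word cocultured, which does not say whether macrophages stood in the same dish as the LNCaP cells. The labels also give a time of day 0 and an adipogenic treatment protocol for both libraries, neither of which was used. The study asks how YY1 in tumor-associated macrophages bears on prostate cancer cells. Each group held 1 library, so no difference reported here has a replicate check, an error or a p-value.

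The members were the genes whose symbol is ITGA or ITGB followed by a number or by V, M, L, X or E, plus ICAM1. The deposited expression table listed 11 such genes among 12075, namely 8 integrin alpha chains, 2 beta chains and ICAM1. Of 25 genes of this kind considered by role, 14 were not listed, among them the leukocyte chains ITGB2, ITGAL and ITGAX, the matrix receptor chains ITGB3, ITGB4, ITGB6 and ITGB8, and ITGA4. Values are FPKM as deposited, that is, fragments scaled by transcript length and by library size. The number of reads behind them is unknown, so no counting error can be attached to a value. Every gene of the table reached at least 0.50 FPKM in its higher library, so a gene that was low in both was not in view. A difference is given as a log2 ratio, log2(FPKM + 1) in the oe-YY1 library minus that in the nc-YY1 library, a scale that compresses differences of low genes. Counts are over genes that reached 1 FPKM in their higher library, 11126 in all and 10 of the 11 members, and they take a gene as higher or lower from 2-fold on the FPKM + 1 scale onward.

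In epithelial cells integrins tie the cytoskeleton to collagen, laminin and fibronectin, and the alpha chain largely sets which of these is bound. Leukocytes carry their own integrins, which bind ICAM1 on other cells and complement fragments on particles. ICAM1 is low on many resting epithelia and is known to be induced by inflammatory cytokines through NF-kappaB and STAT factors, which bind sites close to its transcription start.

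Of the 10 members that reached 1 FPKM, 4 were at least 2-fold higher in the oe-YY1 library (ICAM1, ITGAM, ITGA2 and ITGAV), against 6.46% of all genes that met the same filter. None of the 10 was at least 2-fold lower, against 5.83% of all genes, and the other 6 stayed within 2-fold. Over the 10 the log2 ratio had a median of 0.74, beside -0.01 over all 11126 genes. Without ICAM1 the median over the 9 integrins was 0.53. ICAM1, ITGAM, ITGA2 and ITGA3 were under 1 FPKM in the nc-YY1 library and passed the filter through the oe-YY1 library, so they could only be higher. Among all genes that entered in that way 39.9% were at least 2-fold higher, beside 3 of these 4. Of the 6 members with at least 1 FPKM in both libraries, ITGAV alone was at least 2-fold higher, where 4.54% of all such genes were higher and 5.2% lower. The median log2 ratio of these 6 was 0.36, beside -0.03 over all such genes, so the median of 0.74 rests in part on the filter.

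The promoters of the 4 genes past 2-fold are shown because they carry the largest differences of the family on the FPKM + 1 scale. Each sequence is the 250 bases before the transcription start, from RefSeq on GRCh38.p14, read 5′ to 3′ on the strand of the gene. Capitals mark matches to a kappaB-type site or a STAT site. ICAM1 lies at chr19:10270870-10271119, ITGAM at chr16:31259725-31259974, ITGA2 at chr5:52989102-52989351 and ITGAV at chr2:186589806-186590055, all on the plus strand.
ICAM1: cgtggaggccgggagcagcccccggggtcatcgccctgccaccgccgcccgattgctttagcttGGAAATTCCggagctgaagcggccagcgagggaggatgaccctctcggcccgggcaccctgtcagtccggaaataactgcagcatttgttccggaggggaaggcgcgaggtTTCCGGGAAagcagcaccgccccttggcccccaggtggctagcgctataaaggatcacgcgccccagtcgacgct
ITGAM: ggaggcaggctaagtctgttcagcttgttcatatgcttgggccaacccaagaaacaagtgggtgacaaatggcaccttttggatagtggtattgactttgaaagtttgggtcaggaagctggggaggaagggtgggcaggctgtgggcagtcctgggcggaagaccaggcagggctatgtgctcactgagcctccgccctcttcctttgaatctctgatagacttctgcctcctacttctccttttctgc
ITGA2: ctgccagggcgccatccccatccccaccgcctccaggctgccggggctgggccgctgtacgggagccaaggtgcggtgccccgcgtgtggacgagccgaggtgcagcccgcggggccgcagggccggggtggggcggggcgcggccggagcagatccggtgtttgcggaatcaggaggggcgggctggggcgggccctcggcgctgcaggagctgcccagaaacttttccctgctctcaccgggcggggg
ITGAV: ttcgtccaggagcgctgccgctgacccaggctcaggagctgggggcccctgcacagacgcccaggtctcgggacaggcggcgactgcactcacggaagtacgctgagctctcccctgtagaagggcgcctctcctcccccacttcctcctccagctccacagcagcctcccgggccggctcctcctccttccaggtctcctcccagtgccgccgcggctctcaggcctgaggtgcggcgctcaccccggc

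The ICAM1 window held the kappaB-type site GGAAATTCC at 186 to 178 bases before the start and a match to the STAT site TTCNNNGAA, read as TTCCGGGAA, at 75 to 67 bases before it. The first of these patterns was taken from what is known of the ICAM1 promoter, so its presence there is no finding. STAT sites close to the ICAM1 start were also known beforehand, so the second match is no finding either. Over 35116 RefSeq windows of the same length, searched on both strands, 0.413% held GGAAATTCC and 6.57% held TTCNNNGAA. The wider NF-kappaB consensus, searched by its usual degenerate form, was present in 5.21% of windows and was not among the letters of the 4 windows printed. No matches overlapped each other. The ITGAM, ITGA2 and ITGAV windows held none of the 3 patterns in these 250 bases. Of the 10 members with a window, all but ITGA3, 4 held a match in the window at the gene's start. Beside ICAM1 these were ITGA5 and ITGA10, each with the NF-kappaB consensus, and ITGAE, with TTCCATGAA. A match is a run of letters and was not tested as a binding site.

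ICAM1 had the largest difference of the family on the FPKM + 1 scale. ICAM1 (ENSG00000090339.8_2, chromosome 19, 10381511 to 10397291, plus strand) stood at 57.6 FPKM in the oe-YY1 library and at 0.889 FPKM in the nc-YY1 library. This is a ratio of 64.8 in FPKM and a log2 ratio of 4.95, the 20th highest of the 11126 genes. In the oe-YY1 library ICAM1 was above 95.5% of all listed genes, and in the nc-YY1 library above 11.9% of them. Its level in the oe-YY1 library was close to that of ITGB1, the most abundant integrin chain, at 54.9 FPKM. ICAM1 thus stood first of the 11 genes in the oe-YY1 library and 7th in the nc-YY1 library.

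**Figure D1:**
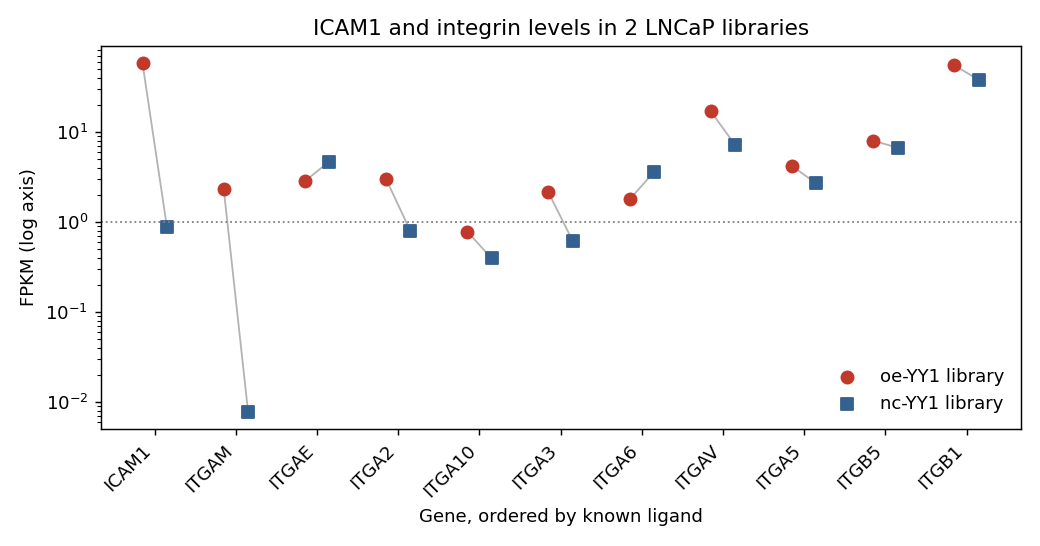
FPKM of ICAM1 and the 10 listed integrin genes on a log axis, with the oe-YY1 library as red circles and the nc-YY1 library as blue squares, 1 library each. ICAM1 stands at 57.6 against 0.889 FPKM and ITGAM at 2.34 against 0.00787 FPKM, while ITGAE and ITGA6 are the 2 genes with the lower value in the oe-YY1 library; the dotted line is at 1 FPKM.

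The genes that lie beside ICAM1 did not share its difference in size. ICAM4, the Landsteiner-Wiener blood group antigen, begins 351 bases beyond the end of ICAM1 on the same strand. It stood at 1.30 FPKM in the oe-YY1 library and was listed at 0 in the nc-YY1 library, and fragments that run on from ICAM1 into ICAM4 were not separated here. ICAM5, a telencephalic member of the family 3365 bases from the end of ICAM1, stood at 1.56 FPKM in the oe-YY1 library and 2.11 FPKM in the nc-YY1 library (log2 ratio -0.28). ICAM3, a ligand of leukocyte integrins that is best known on resting leukocytes, stood at 3.34 and 6.53 FPKM in the oe-YY1 and nc-YY1 libraries (-0.79). The 4 ICAM genes therefore divided into ICAM1 and ICAM4, with more FPKM in the oe-YY1 library, and ICAM3 and ICAM5, with less.

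The leukocyte integrins were represented by ITGAM and ITGAE, which went in opposite directions. ITGAM (ENSG00000169896.16_2, chromosome 16, 31271311 to 31344213, plus strand) encodes the alpha chain of the complement and ICAM1 receptor of myeloid cells, whose beta chain is the product of ITGB2. ITGAM stood at 2.34 FPKM in the oe-YY1 library and at 0.00787 FPKM in the nc-YY1 library (log2 ratio 1.73). In the oe-YY1 library ITGAM was above 25.9% of listed genes, so it was a low transcript where it was present. A ratio of the FPKM values is not given, because the nc-YY1 value is close to 0 and its depth is unknown. ITGB2 was not listed, while every listed gene reached at least 0.50 FPKM in its higher library. No level of the ITGAM partner chain can therefore be given.

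ITGAM is also a marker of macrophages, and markers of leukocytes were read beside it. Of 36 macrophage and other leukocyte markers outside the integrins, 32 were not listed, among them PTPRC, CD14, CSF1R and TYROBP. Every listed gene reached at least 0.50 FPKM in its higher library. The 4 listed markers summed to 11.1 FPKM in the oe-YY1 library and 1.39 FPKM in the nc-YY1 library. CTSS, a lysosomal protease, stood at 5.87 and 0.0409 FPKM in the oe-YY1 and nc-YY1 libraries, and CD68, a lysosomal glycoprotein, at 4.18 and 0.632 FPKM. LYZ, lysozyme, stood at 0.603 and 0.0382 FPKM in the same order of libraries, and FERMT3, the kindlin of blood cells, at 0.430 and 0.681 FPKM. CTSS and CD68, like ITGAM, passed the filter through the oe-YY1 library alone, so they could only be higher. Among all genes that entered in that way 39.9% were at least 2-fold higher. LYZ and FERMT3 did not reach 1 FPKM in either library and were not called. The part of leukocyte RNA in the ITGAM value was not tested. In bulk RNA, more cells of a type and more RNA per cell cannot be told apart.

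ITGAE (ENSG00000083457.11_2, chromosome 17, 3617922 to 3704537, minus strand) encodes the alpha chain of the E-cadherin receptor of intraepithelial lymphocytes, whose beta chain is the product of ITGB7. ITGAE stood at 2.83 FPKM in the oe-YY1 library and at 4.69 FPKM in the nc-YY1 library (log2 ratio -0.57), under 2-fold. Among the alpha chains of the nc-YY1 library it was second to ITGAV. HASPIN, a mitotic histone kinase gene, lies on the opposite strand inside ITGAE, and stood at 0.924 and 4.34 FPKM in the oe-YY1 and nc-YY1 libraries (-1.47). No source used here says whether the counting used strand, so reads of ITGAE and HASPIN may be divided between them. CDH1, E-cadherin, the ligand of the ITGAE receptor, stood at 119 FPKM in the oe-YY1 library and 75.4 FPKM in the nc-YY1 library (0.65). ITGB7 was not listed.

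The most abundant alpha chain in both libraries was ITGAV, of the RGD-binding group. These integrins recognise a short arginine-glycine-aspartate motif in fibronectin, vitronectin and thrombospondin. ITGAV (ENSG00000138448.11_3, chromosome 2, 187454792 to 187545628, plus strand), the alpha chain that pairs with several beta chains, stood at 16.9 FPKM in the oe-YY1 library and 7.14 FPKM in the nc-YY1 library. Its ratio was 2.37 in FPKM and its log2 ratio 1.14, the largest difference among members that reached 1 FPKM in both libraries. ITGB5 (ENSG00000082781.11_3, chromosome 3, 124480795 to 124620265, minus strand), which pairs with ITGAV as a vitronectin receptor, stood at 7.99 and 6.67 FPKM in the oe-YY1 and nc-YY1 libraries (log2 ratio 0.23). ITGAV was therefore at 2.11 times the FPKM of ITGB5 in the oe-YY1 library and at 1.07 times in the nc-YY1 library.

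ITGA5 (ENSG00000161638.10_3, chromosome 12, 54789045 to 54813244, minus strand), which forms the classical fibronectin receptor with ITGB1, stood at 4.18 FPKM in the oe-YY1 library and 2.68 FPKM in the nc-YY1 library (log2 ratio 0.49). ITGB1 (ENSG00000150093.18_3, chromosome 10, 33189247 to 33294720, minus strand), the beta chain shared by most matrix integrins, stood at 54.9 and 37.6 FPKM in the oe-YY1 and nc-YY1 libraries (0.53). Both were higher by less than 2-fold. ITGB1 exceeded the sum of all listed alpha chains in both libraries, at 1.62 times that sum in the oe-YY1 library and 1.89 times in the nc-YY1 library.

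**Figure D2:**
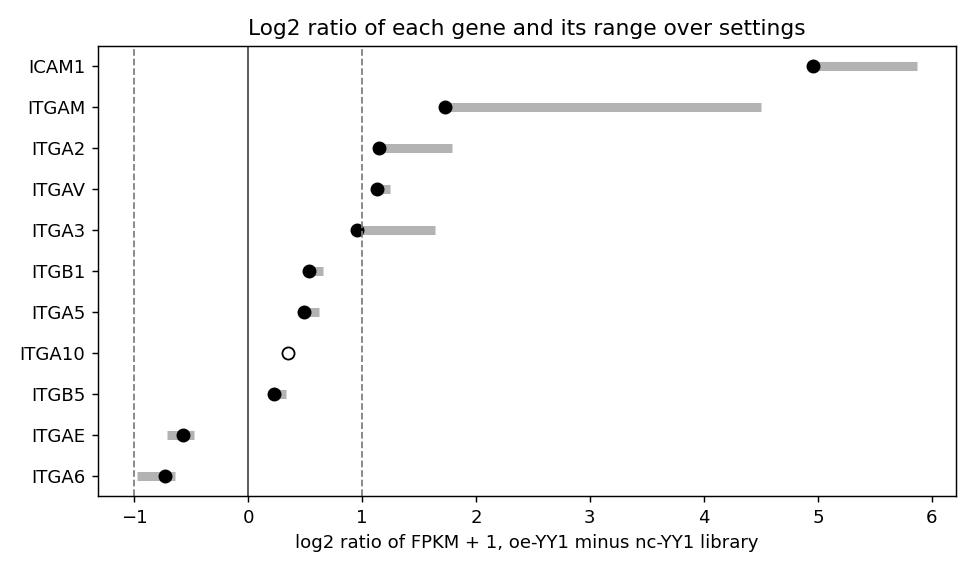
Log2 ratio of FPKM + 1, oe-YY1 minus nc-YY1 library, for each of the 11 genes (black points, with ITGA10 open because it did not reach 1 FPKM), with a grey bar from the lowest to the highest value over the settings tried. ITGA10 has no bar because the filter left it out under every other pseudocount and scaling, so its range is unknown. Dashed lines mark 2-fold; ICAM1, ITGAM, ITGA2 and ITGAV lie beyond the upper line, ITGA3 at 0.95 falls short of it with a bar that crosses it, and ITGA6 and ITGAE lie below 0.

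The collagen-binding alpha chains were low and both had the higher value in the oe-YY1 library. ITGA2 (ENSG00000164171.10_2, chromosome 5, 52285156 to 52390609, plus strand), the epithelial and platelet collagen receptor chain, stood at 2.99 FPKM in the oe-YY1 library and 0.795 FPKM in the nc-YY1 library. Its ratio was 3.76 in FPKM and its log2 ratio 1.15. ITGA10 (ENSG00000143127.12_2, chromosome 1, 145524891 to 145543868, plus strand), a collagen receptor chain best known in cartilage, stood at 0.784 and 0.395 FPKM in the oe-YY1 and nc-YY1 libraries. ITGA10 did not pass the filter and was left out of the counts. ITGA1 and ITGA11, the other collagen-binding chains, were not listed.

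The laminin-binding alpha chains ITGA3 and ITGA6 differed in direction. ITGA3 (ENSG00000005884.17_2, chromosome 17, 48133332 to 48167845, plus strand) stood at 2.13 FPKM in the oe-YY1 library and 0.614 FPKM in the nc-YY1 library. Its log2 ratio of 0.95 fell short of 2-fold on the FPKM + 1 scale, although the FPKM ratio was 3.46. ITGA6 (ENSG00000091409.14_3, chromosome 2, 173292082 to 173371010, plus strand) stood at 1.78 FPKM in the oe-YY1 library and 3.59 FPKM in the nc-YY1 library, with a log2 ratio of -0.72. On plain FPKM the nc-YY1 value of ITGA6 was 2.02 times the oe-YY1 value, while on the FPKM + 1 scale the difference was under 2-fold. ITGA3 thus stood at 1.20 times the FPKM of ITGA6 in the oe-YY1 library and at 0.171 times in the nc-YY1 library. ITGB4, the beta chain that pairs with ITGA6 in hemidesmosomes, was not listed.

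The authors' deposited table of higher genes held ICAM1, ITGAM, ITGA2, ITGAV and ITGA3, and that of lower genes held ITGA6, both at a fold of at least 1.5 on the FPKM + 1 scale. The largest of the authors' deposited log2 fold changes among these was 4.95, for ICAM1, and the lowest was -0.72, for ITGA6. The p-values and q-values in the authors' deposited table were 1 throughout and were not used.

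The makeup of the alpha chain mRNA differed between the libraries. The 8 alpha chains summed to 33.9 FPKM in the oe-YY1 library and 19.9 FPKM in the nc-YY1 library, and the 2 beta chains to 62.9 and 44.3 FPKM in these libraries. All 10 integrin chains together stood at 96.8 FPKM in the oe-YY1 library and 64.2 FPKM in the nc-YY1 library, a ratio of 1.51. ITGAV held 49.8% of the alpha sum in the oe-YY1 library and 35.9% in the nc-YY1 library. ITGAE held 8.35% and ITGA6 5.24% of it in the oe-YY1 library, against 23.5% for ITGAE and 18.03% for ITGA6 in the nc-YY1 library. ITGA5 held a similar share in both, at 12.3% in the oe-YY1 library and 13.4% in the nc-YY1 library. ITGB1 held 87.3% of the beta sum in the oe-YY1 library and 84.9% in the nc-YY1 library. With 1 library each, which neighbouring places in these orders differ beyond library spread cannot be said.

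**Figure D3:**
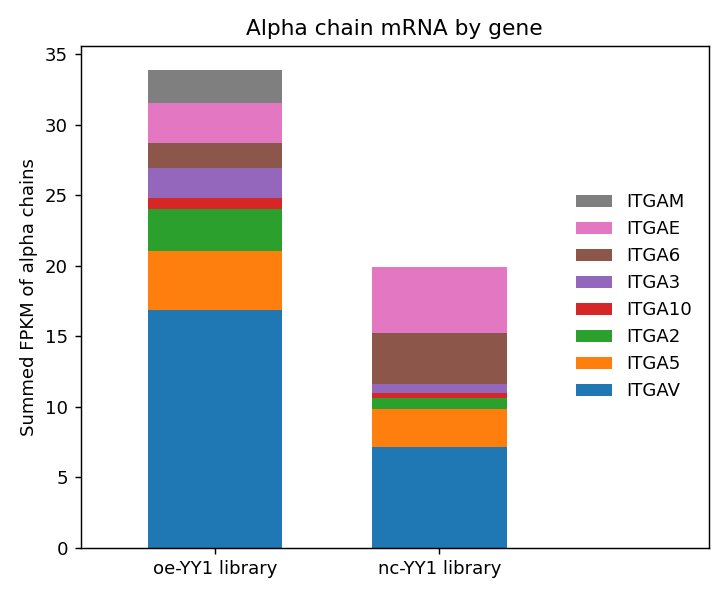
Summed FPKM of the 8 listed integrin alpha chains in the oe-YY1 library (left) and the nc-YY1 library (right), divided by gene, 1 library each. The column reaches 33.9 FPKM in the oe-YY1 library, of which ITGAV holds 49.8%, and 19.9 FPKM in the nc-YY1 library, of which ITGAV holds 35.9% and ITGAE 23.5%.

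**Figure D4:**
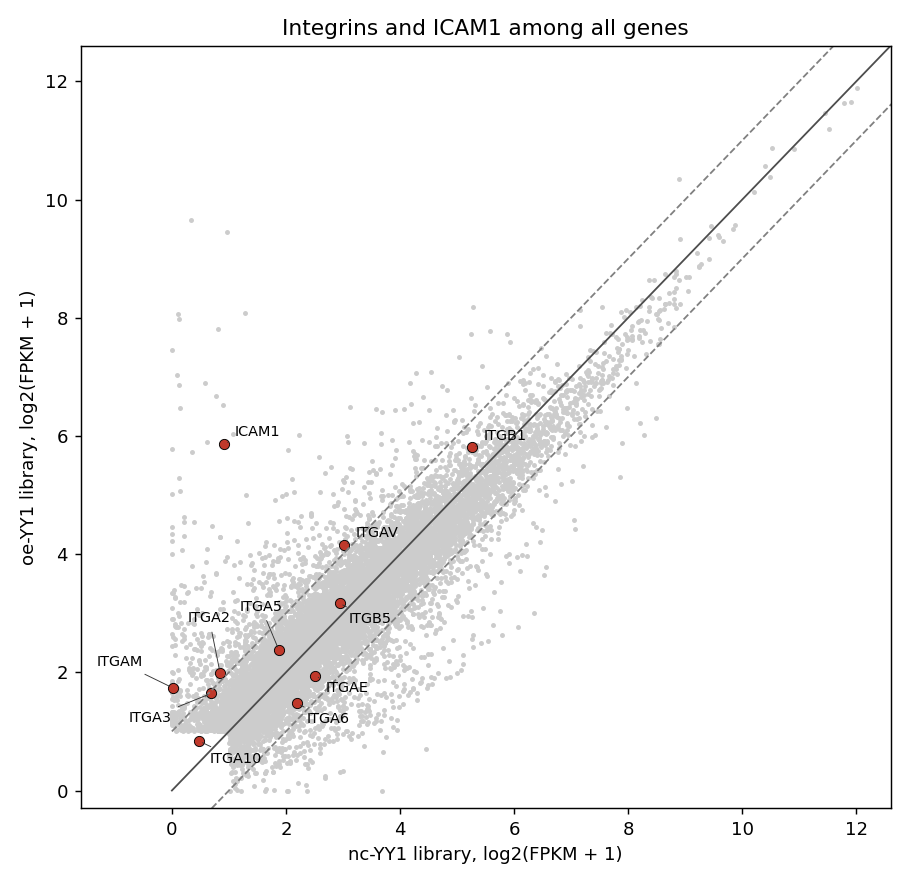
Log2(FPKM + 1) of the oe-YY1 library against that of the nc-YY1 library for the 11126 genes with at least 1 FPKM in the higher library (grey) and for ICAM1 and the 10 integrins (red), with the diagonal solid and 2-fold dashed. ICAM1 lies far above the upper dashed line, ITGAM sits on the left edge, and 6 of the 9 integrins that reached 1 FPKM lie within the band.

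The matrix proteins that these receptors bind were read from a set of 44, of which 24 were not listed among the genes with values. Of the 17 that reached 1 FPKM, 3 were at least 2-fold higher in the oe-YY1 library and 0 lower. Over all genes these shares were 6.46% and 5.83%. The median log2 ratio of the 17 was 0.27. The 3 higher genes were FN1, THBS1 and LAMB3. LAMB3 passed the filter through the oe-YY1 library alone, so it could only be higher. The count was 2 with 1 FPKM required in both libraries. FN1, fibronectin, a ligand of the ITGA5 and ITGAV receptors, stood at 288 FPKM in the oe-YY1 library and 37.98 FPKM in the nc-YY1 library (log2 ratio 2.89). THBS1, thrombospondin, stood at 113 and 25.8 FPKM in the oe-YY1 and nc-YY1 libraries (2.09), and the laminin chain LAMB3 at 9.96 and 0.165 FPKM (3.23). LAMA3, the chain that joins LAMB3 in the epithelial laminin bound by the ITGA3 and ITGA6 receptors, stood at 10.2 and 11.6 FPKM in the oe-YY1 and nc-YY1 libraries (-0.18). LAMC1, a chain common to many laminins, stood at 49.3 and 66.2 FPKM (-0.42). The fibronectin difference, at a ratio of 7.59 in FPKM, was thus larger than that of ITGAV at 2.37 or ITGA5 at 1.56.

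Of the 9 listed surface ligands of integrins besides ICAM1, ICAM4 alone was at least 2-fold higher and 0 were lower, with a median log2 ratio of 0.36. Among all genes 6.46% were higher and 5.83% lower. ICAM4 entered through the oe-YY1 library alone, so the count was 0 with 1 FPKM required in both libraries or 5 FPKM in the higher one. It was 2 at a pseudocount of 0.1 or 0.5 and after scaling both libraries to 1 sum. Of the sheddases in this list, ADAM17, which releases TNF and also binds ITGA5 receptors, stood at 8.50 and 3.92 FPKM in the oe-YY1 and nc-YY1 libraries (0.95). F11R, the tight junction molecule JAM-A, stood at 35.7 and 27.7 FPKM (0.36). CD47, a partner of ITGAV receptors, stood at 11.5 and 10.98 FPKM (0.06).

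Inside the cell, integrin tails are joined to actin by talin, kindlins, vinculin and the complex of ILK, PINCH and parvin. Of 34 adaptors and kinases that reached 1 FPKM, 1 was at least 2-fold higher in the oe-YY1 library and 1 lower. Over all genes these shares were 6.46% and 5.83%. The median log2 ratio of the 34 was 0.24. TES, a LIM protein of focal adhesions, stood at 10.2 and 3.31 FPKM in the oe-YY1 and nc-YY1 libraries (1.38). PARVA, a parvin that binds ILK, stood at 3.44 and 7.90 FPKM (-1.004), and its paralog PARVB at 5.53 and 10.03 FPKM (-0.76). ILK itself stood at 22.8 and 25.2 FPKM (-0.14). PARVA lay at the limit and was under 2-fold once both libraries were scaled to 1 sum or to 1 value of the 75th percentile.

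The kindlins, which bind beta chain tails and help to activate integrins, had opposite signs. FERMT1, the kindlin of epithelia, stood at 1.45 FPKM in the oe-YY1 library and 3.52 FPKM in the nc-YY1 library (log2 ratio -0.88). FERMT2, the more widely expressed kindlin, stood at 4.73 FPKM in the oe-YY1 library and 2.27 FPKM in the nc-YY1 library (0.81). TLN1, talin, stood at 14.2 and 7.99 FPKM in the oe-YY1 and nc-YY1 libraries (0.76), and ZYX, zyxin, at 21.8 and 10.8 FPKM (0.94). The focal adhesion kinase PTK2, at 5.55 and 4.04 FPKM, and paxillin, PXN, at 9.40 and 8.81 FPKM, were closer together.

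None of the 18 regulators of integrin activity and trafficking that reached 1 FPKM was past 2-fold, and their median log2 ratio was -0.07. Among all genes 6.46% were higher and 5.83% lower. CIB1, a calcium-binding protein of integrin alpha tails, stood at 87.3 and 119.6 FPKM in the oe-YY1 and nc-YY1 libraries (-0.45). Of the 9 tetraspanin and hemidesmosome partners none was past 2-fold (1 was lower at a pseudocount of 0.1 or 0.5). A negative log2 ratio was found in 7 of the 9, with a median of -0.32, where 49.2% of all genes had a positive one. CD9, a tetraspanin that associates with ITGA3 and ITGA6 receptors, stood at 54.3 and 109.6 FPKM in the oe-YY1 and nc-YY1 libraries, just under 2-fold on the FPKM + 1 scale (log2 ratio -0.999). CD151, the tetraspanin of laminin receptors, stood at 19.9 and 23.2 FPKM (-0.22).

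Of 9 other matrix receptors, 2 were at least 2-fold higher in the oe-YY1 library and 1 lower, with a median log2 ratio of 0.46. Over all genes 6.46% were higher and 5.83% lower. The syndecans, heparan sulfate proteoglycans that act beside integrins on fibronectin, had the same sign in all 4 genes. SDC4 stood at 66.8 and 27.4 FPKM in the oe-YY1 and nc-YY1 libraries (1.26) and SDC2 at 5.07 and 1.46 FPKM (1.30). SDC1 stood at 15.8 and 7.79 FPKM (0.93) and SDC3 at 11.5 and 7.34 FPKM (0.58), both under 2-fold. HMMR, a hyaluronan-binding protein that also acts on the mitotic spindle, stood at 2.33 and 17.8 FPKM (-2.50).

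**Figure D5:**
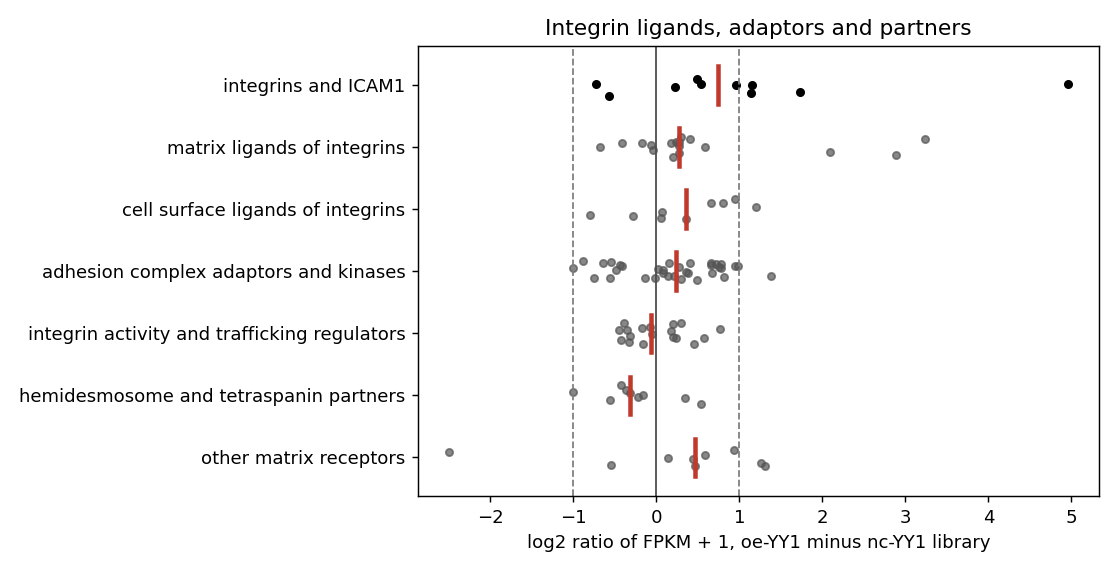
Log2 ratio of FPKM + 1, oe-YY1 minus nc-YY1 library, for the 10 members, ICAM1 and 9 integrins, that reached 1 FPKM and for genes of 6 lists around them, 1 point per gene, with the median of each list as a red bar and 2-fold as dashed lines. The medians run from -0.32 for hemidesmosome and tetraspanin partners to 0.74 for the integrins and ICAM1, and single genes such as LAMB3 at 3.23 and HMMR at -2.50 lie far from their list's median. Of the 10 members, 4 passed the filter through the oe-YY1 library alone, so they could only be higher. With 1 FPKM required in both libraries the members' median was 0.36, and that of other matrix receptors was 0.46.

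The cell type label was read against markers. All 15 luminal prostate markers were listed at 5 FPKM or more in both libraries, with KRT8 at 38.1 and 39.2 FPKM in the oe-YY1 and nc-YY1 libraries, while KLK3, prostate-specific antigen, stood at 77.6 and 358 FPKM. Of these 15, 6 were at least 2-fold lower and 1 higher in the oe-YY1 library, against 5.83% and 6.46% of all genes. No basal epithelial marker of 5 was listed, and of 11 fibroblast and 8 endothelial markers only COL1A1, at 2.78 and 2.12 FPKM, and VWF, at 0.617 and 0.275 FPKM, were listed.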

How the data were processed

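RNA was measured in 2 LNCaP libraries, 1 per group, each made from 2 ug of total RNA, per the labels' protocols. The labels name poly(A) selection, ribosomal depletion and a stranded kit without saying which step served which library. The authors deposited gene values in FPKM, and the submitters' processing notes name StringTie 2.1.0 and no aligner. Depth is unknown, so no interval is given. The notes name the mouse build mm10, but identifiers and coordinates are human, and 11946 of 12075 identifiers carry the suffix of GENCODE annotation mapped to GRCh37. Of 11995 identifiers matched in GENCODE 29 (GRCh38), 97 had the same start and end, and 0 of the members did. Gene coordinates are printed as deposited, with GRCh37 an inference, and promoter coordinates are on GRCh38.p14.

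In the authors' deposited tables of changed genes stood a log2 fold change, a linear fold ratio and a p-value per gene. For the members they hold, the log2 fold change equals the difference of log2(FPKM + 1), checked on the values. Over all their genes only the log2 values per library were checked, and these equal log2(FPKM + 1).

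Log2 ratios used a pseudocount of 1 FPKM and a filter of 1 FPKM in the higher library, in Python 3.11.15 with pandas 2.3.3, and the calculation was tested on simulated data. With 1 library per group no test was run. The members, lists and motifs were chosen with earlier results of these data known. Named genes are every listed member, KLK3, and in each list up to 4 members past 2-fold with the largest log2 ratio, or the most abundant member. HASPIN, ICAM3, ICAM5, CDH1, ADAM17, F11R, CD47, LAMA3, LAMC1, PARVB, ILK, FERMT1, FERMT2, TLN1, ZYX, PTK2, PXN, CD151, SDC1, SDC3, KRT8 and the leukocyte, fibroblast and endothelial markers are not covered by it and were picked once their values were known. The rule did not say in which library the most abundant member was to be read. CD9 had the highest FPKM of its list in the nc-YY1 library (109.6), while BSG, another partner in that list, had it in the oe-YY1 library (83.3). Alternatives were other pseudocounts, filters, scalings and a fold limit of 1.5.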

Additional observations from a re-analysis of the deposited data

How the results depend on the processing

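Of 40 member values under another pseudocount or scaling, 37 kept their side of the 2-fold limit and 0 changed sign. ITGA3 passed 2-fold at a pseudocount of 0.5 (log2 ratio 1.24), at a pseudocount of 0.1 (1.64) and after scaling both libraries to 1 sum (1.02). ITGAM ranged from 1.73 to 4.50 and ICAM1 from 4.95 to 5.87. The count of members at least 2-fold higher was 1 with 1 FPKM required in both libraries, which leaves 6 members, and 2 with 5 FPKM in the higher library, which leaves 4, where 7.11% of all genes were higher. At a fold limit of 1.5, 5 members were higher and 1 lower, where 15.3% of all genes were higher and 15.2% lower. The median of the members was 0.93 at a pseudocount of 0.1, 0.87 at 0.5, 0.53 with no filter and 0.36 with 1 FPKM in both libraries. Scaling to the same sum moved the median of all genes by 0.10, and every member that passed the filter kept its sign. The median of the activity and trafficking regulators turned to 0.0524 with 5 FPKM in the higher library and to 0.0355 with the same sum. The adaptors past 2-fold numbered up to 5 higher and 2 lower at a pseudocount of 0.1, and 3 higher and 0 lower with the same sum. Over all genes 10.1% were higher and 8.21% lower at that pseudocount, and 7.65% and 4.73% with the same sum. No paired analysis was possible because each group held 1 library. Without replicates or read counts, the error of each value is unknown.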

Other observations

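Other listed genes carry the letters ITG in their symbols without being integrins, and were looked at after the members. ITGB1BP1, which binds the ITGB1 tail and limits its activation, stood at 2.88 FPKM in the oe-YY1 library and 4.08 FPKM in the nc-YY1 library (log2 ratio -0.39). ITGB1BP2, a chaperone-like protein known from muscle, stood at 0.458 FPKM in the oe-YY1 library and 1.01 FPKM in the nc-YY1 library (-0.46). ITGB3BP, a centromere protein also named for an ITGB3 interaction, stood at 3.14 FPKM in the oe-YY1 library and 3.73 FPKM in the nc-YY1 library (-0.19). All 3 differed by less than 2-fold on the FPKM + 1 scale.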
